A study of Rattus norvegicus with 6 samples.

Results

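The comparison described is the step from disease onset to end stage in the spinal cord of rats that carry the G93A mutant SOD1 gene, measured on 2 of the 6 arrays of the series, with the same step in wild-type (WT) cord as the control. Each array held RNA pooled from 5 female Sprague-Dawley rats. The mutant pools, labelled G93A SOD1, were taken before symptoms, at onset and at end stage, and the WT pools came from littermates matched to each stage by age. There was thus 1 array per genotype and stage, and no value below has a replicate of its own. The labels give neither the promoter nor the copy number of the mutant gene. They give an age of 10 weeks to every pool, which the design text states only for the presymptomatic stage, and they name lumbar cord in the titles and thoracic cord in the descriptions, so the segment is not settled. Probes with a detection p below 0.01 on either mutant array were kept. These were 11493 of 22226 probes, of which 9640 were detected on both mutant arrays, 909 at end stage only and 944 at onset only. The kept probes that carry a gene symbol gave 8100 genes (6998 detected on both mutant arrays, 518 at end stage only and 584 at onset only), and 3332 kept probes were unnamed.

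Mutant SOD1 causes a familial form of amyotrophic lateral sclerosis, in which motor neurons of the spinal cord and brain stem die and the muscles they serve weaken. Microglia, the resident phagocytes of the cord, take on an activated state that goes with complement, phagocytic receptors and lysosomal genes, and astrocytes become reactive. Onset marks the first motor signs and end stage the paralysed animal, so the step between them covers the symptomatic course of the disease.

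Levels are log2 units of normalized intensity, and a step is the log2 level at end stage minus that at onset. A gene is said to have risen or fallen only where its step passed 2-fold in size, since no test of 1 array against 1 is possible. Because the deposited probe IDs did not belong to their rows, IDs were sorted as text and set against the rows in file order. In that order 1.38% of 1305 odorant, vomeronasal and taste receptor probes and 89.9% of 168 ribosomal, respiratory chain and proteasome probes were detected on all 6 arrays, against 37.8% and 43.5% with the IDs as deposited. The arrays detected between 9116 probes in presymptomatic mutant cord and 10942 probes in presymptomatic WT cord, with 10549 at end stage and 10584 at onset in the mutant. Sod1, the rat superoxide dismutase gene, had log2 levels of 13.02, 12.91 and 12.81 in the presymptomatic, onset and end-stage mutant pools, against 12.80, 12.91 and 13.07 in the WT pools. The probe thus differed little between genotypes, and the labels do not say whether it also binds the mutant transcript. Markers of cord cells were present, with 38 of 39 neuronal, 29 of 29 myelin and 18 of 19 astrocyte marker genes on the array, and 9 of 15 posterior Hox genes, detected in mutant cord.

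From onset to end stage, 131 of 8100 genes rose in mutant cord (1.62%) and 298 fell (3.68%). In WT cord 19 of the same genes rose (0.235%) and 142 fell (1.75%). The genes were kept by detection on the mutant arrays, which admits genes detected in only 1 mutant pool. With detection on both mutant arrays, 106 rose and 232 fell in mutant cord, against 17 and 116 in WT cord. With no detection filter, 131 rose and 298 fell in mutant cord, against 22 and 141 in WT cord. Only 4 mutant rises exceeded 4-fold, those of Scn10a, Mrpl18, Htr3a and Scn11a, against 47 falls of that size. The step of all genes had a median of 0.0475 and an SD of 0.529 in mutant cord and a median of 0.0217 and an SD of 0.389 in WT cord (log2). The split of rises and falls depends on the scaling, as it was 292 rises and 252 falls in the authors' normalized values and 36 rises and 628 falls without normalization between arrays. Under neqc, a background correction that inferred more noise, it was 38 and 93. Single steps depended on neqc and on the offset added before the log. Of the 102 named genes past 2-fold, 61 had a step that moved by over 1.5-fold with neqc. With an offset of 50 in place of 16, 25 did. In the authors' values, or without normalization between arrays, 0 of the 102 moved that far. Any pair of WT pools gave 155 to 281 genes past 2-fold in either direction, against 429 for the mutant step. A step wider than the range of the 3 WT pools was seen in 120 of the 131 rises and in 256 of the 298 falls, and in 41.0% of all genes. Rises and falls were chosen by the size of that same step, so a larger share among them follows from the choice. The mutant step exceeded the WT step by at least 2-fold in 289 genes (3.57%) and lay at least 2-fold below it in 214 genes (2.64%).

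**Figure D1:**
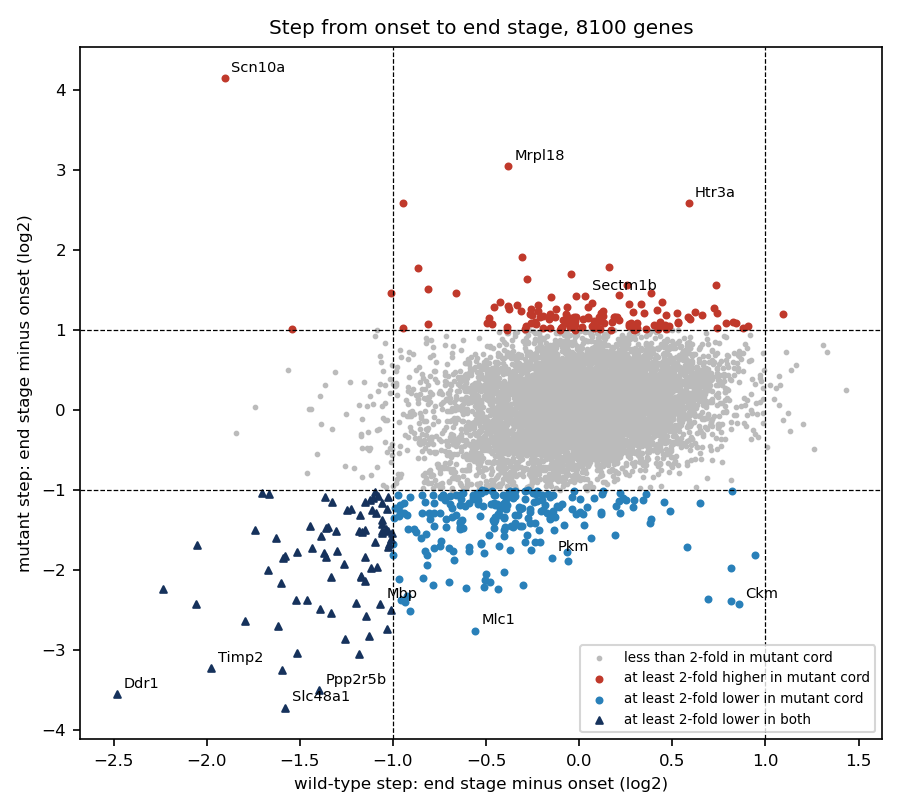
Each point is 1 of 8100 genes, with the step in WT cord on the x axis and the step in mutant cord on the y axis (both log2, end stage minus onset), and dashed lines mark 2-fold. The 78 dark triangles are genes that fell in both genotypes, whereas 1 gene rose in both, and Scn10a lies alone at a mutant step of 4.14.

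The rises were spread over many kinds of gene. Mrpl18, a protein of the mitochondrial large ribosomal subunit, rose 8.29-fold, with log2 levels of 7.02, 5.43 and 8.48 in the presymptomatic, onset and end-stage mutant pools, against 6.50, 6.23 and 5.85 in the WT pools. Its log2 step of 3.05 was 1.39 with neqc and 2.34 with an offset of 50. Its end-stage level was the highest of the 6 and its onset level the lowest. Errfi1, a feedback inhibitor of the EGF receptor, rose by a log2 step of 1.47, with 9.26, 8.60 and 10.06 (log2 level) from the presymptomatic to the end-stage mutant pool and 9.66, 8.93 and 9.31 across the WT pools. Its end-stage level lay above the other 5 pools. Colec12, a scavenger receptor of endothelium and stroma, had log2 levels of 6.26, 5.94 and 7.46 in the presymptomatic, onset and end-stage mutant pools, against 5.99, 6.61 and 5.80 in the WT pools. Only the end-stage mutant pool was above 7. Tspan8, a tetraspanin, read 8.58, 8.59 and 10.05 (log2 level) from the presymptomatic to the end-stage mutant pool and 7.98, 9.04 and 8.38 across the WT pools. Epcam, an epithelial adhesion molecule, had log2 levels of 4.90, 6.09 and 7.52 in the presymptomatic, onset and end-stage mutant pools, against 4.80, 4.83 and 4.82 in the WT pools. The WT pools spanned 0.04 log2 units, and both symptomatic mutant pools lay above them. Adamts1, a secreted metalloproteinase, rose by 1.08 in mutant cord, against a WT step of 0.27 (log2 steps). Ppp1r1c, an inhibitor subunit of protein phosphatase 1, was not detected at mutant onset and was at least 3.43-fold higher at end stage, a log2 step of 1.78 that was 0.26 with neqc and 1.04 with an offset of 50. Of the 15 largest rises among genes detected on both mutant arrays, whose log2 steps ran from 1.33 to 3.05, 7 were still past 2-fold under neqc.

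The 10 genes with the largest excess of mutant over WT cord at onset, chosen by that value, exceeded it by 2.96 to 4.1 log2 units. They were genes of phagocytes, of the extracellular matrix and of other kinds. In whole cord, a change in the number of cells of a type and one in RNA per cell cannot be told apart. The steps of these 10 genes from onset to end stage ran from -0.164 to 0.601, with 6 above 0 and none past 2-fold. Cd68, a lysosomal membrane protein of phagocytes, had log2 levels of 8.01, 11.85 and 11.90 in the presymptomatic, onset and end-stage mutant pools, against 7.15, 7.75 and 7.63 in the WT pools. Its end-stage and onset levels in mutant cord lay 0.05 apart. Cxcl13, a B-cell chemokine, had log2 levels of 6.48, 10.41 and 10.38 in the presymptomatic, onset and end-stage mutant pools, against 5.13, 7.39 and 6.49 in the WT pools. Ncf1, a cytosolic subunit of the phagocyte oxidase, read 7.25, 10.51 and 10.74 (log2 level) from the presymptomatic to the end-stage mutant pool and 7.70, 7.51 and 7.82 across the WT pools. Folr2, a folate receptor of tissue macrophages, read 6.58, 9.85 and 9.68 (log2 level) from the presymptomatic to the end-stage mutant pool and 5.75, 6.88 and 6.02 across the WT pools. Thbs2, a matricellular thrombospondin, had log2 levels of 5.64, 8.94 and 8.81 in the presymptomatic, onset and end-stage mutant pools, against 5.23, 5.77 and 4.73 in the WT pools. In these 4 genes, too, the onset mutant pool was far above the presymptomatic one, and the steps that followed ran from -0.16 to 0.23 (log2). Ifitm1, an interferon-induced membrane protein, and Ngfr, the p75 neurotrophin receptor, had the largest later steps of the 10, at 0.59 and 0.60 against WT steps of -0.61 and -0.51 (log2). The others were Fcrl2, an Fc receptor-like gene, Cthrc1, a secreted protein of collagen-rich tissue, and Postn, the matrix protein periostin, with log2 steps of -0.10, 0.21 and 0.50.

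Of 16 complement genes measured, of 23 listed, 14 had a step above 0, as did 54.2% of all genes, and none passed 2-fold. The list's median log2 step was 0.23, and ran from 0.11 to 0.414 over the alternative settings other than the IDs as deposited, against -0.09 in WT cord, where 7 of the 16 and 52.7% of all genes had a step above 0. C1s, a protease of the C1 complex, had log2 levels of 9.95, 11.17 and 11.84 in the presymptomatic, onset and end-stage mutant pools, against 9.84, 10.20 and 9.81 in the WT pools, a step of 0.67 that did not reach 2-fold. Among 18 genes of the disease-associated microglial state, 12 had a step above 0 and none passed 2-fold. Gpnmb, a glycoprotein of lipid-laden phagocytes, had the largest log2 step of that list, 0.88, and Clec7a, the beta-glucan receptor, came next with 0.79. Of 12 homeostatic microglial genes, 9 had a step below 0, against 45.6% of all genes. P2ry12, the ADP receptor of resting microglia, read 6.36, 7.56 and 6.63 (log2 level) from the presymptomatic to the end-stage mutant pool and 6.21, 6.85 and 6.43 across the WT pools. Its end-stage mutant level lay inside the range of the WT pools, and its log2 step was -0.93. Tmem119 was not detected at end stage or before symptoms in mutant cord, with log2 levels of 4.51, 5.00 and 4.52 by stage. Its log2 step of -0.47 was -0.05 with neqc.

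Several phagocyte and immune genes rose between onset and end stage. Sectm1b, an interferon-induced secreted and membrane protein, had log2 levels of 4.51, 7.17 and 8.59 in the presymptomatic, onset and end-stage mutant pools, against 4.43, 4.43 and 4.46 in the WT pools. It was not detected in any WT pool or in presymptomatic mutant cord. Mmp12, the macrophage elastase, had log2 levels of 4.39, 7.28 and 8.40 in the presymptomatic, onset and end-stage mutant pools, against 4.39, 4.45 and 4.36 in the WT pools, again with no detection outside the symptomatic mutant pools. Fcgr2b, the inhibitory IgG receptor, rose 2.95-fold, with log2 levels of 5.15, 6.47 and 8.03 in the presymptomatic, onset and end-stage mutant pools, against 4.99, 5.20 and 5.93 in the WT pools. Its WT step was 0.74, in the same direction, and its log2 step of 1.56 was 0.78 with neqc and 1.27 with an offset of 50. Fcgr1a, the high-affinity IgG receptor, had a log2 step of 1.26, and Cd14, the lipopolysaccharide co-receptor, had one of 1.13, against WT steps of -0.12 and 0.02. Fcgr1a read 6.81, 6.47 and 7.73 (log2 level) across the mutant stages, lowest at onset. Il18, a cytokine matured by inflammasomes, had log2 levels of 7.39, 7.97 and 9.003 in the presymptomatic, onset and end-stage mutant pools, against 6.84, 7.04 and 7.13 in the WT pools. Il1r2, the decoy receptor of interleukin 1, rose by 1.04. The chemokine Ccl4 was detected at end stage but not at onset, with at least a 2.21-fold difference. Its mutant levels by stage were 5.09, 4.74 and 5.88 (log2), also lowest at onset. Its log2 step of 1.15 was 0.13 with neqc and 0.62 with an offset of 50. Cybb, the catalytic subunit of the phagocyte oxidase, went the other way, with log2 levels of 4.33, 6.16 and 4.82 in the presymptomatic, onset and end-stage mutant pools, against 4.50, 4.76 and 4.36 in the WT pools. It was not detected in presymptomatic mutant cord or in any WT pool. Its log2 step of -1.34 was -0.17 with neqc and -0.76 with an offset of 50, past 2-fold in neither. Of 27 phagocyte receptor and oxidase genes, 4 rose and 1 fell, against 1.62% and 3.68% of all genes. Of 38 cytokine and chemokine genes, 3 rose and none fell. In this list 26 had a step above 0, against 54.2% of all genes. Ccl4, and Cd163 among the phagocyte receptor rises, were kept through detection at end stage alone, which favours a rise.

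Markers of T and B cells were higher at end stage in 10 of 11 measured genes, against 54.2% of all genes, but none passed 2-fold. Lck, a member, was kept through its detection at end stage alone, which favours a step above 0. The list's median log2 step was 0.51 against -0.14 in WT cord. The median was 0.0694 with neqc, 0.21 without normalization between arrays and 0.259 without the detection filter. Cd8a, the co-receptor of cytotoxic T cells, had log2 levels of 4.60, 6.76 and 7.73 in the presymptomatic, onset and end-stage mutant pools, against 4.86, 4.56 and 4.45 in the WT pools. The symptomatic mutant pools were the only ones above 5. Only 11 of 20 lymphocyte genes on the array were detected in mutant cord. Of 19 interferon-response genes Sectm1b alone rose, and the list's median step of 0.01 changed sign without normalization between arrays. Antigen presentation genes had a median step of -0.02 that changed sign under the shift by the 75th percentile, and none of 18 passed 2-fold.

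**Figure D2:**
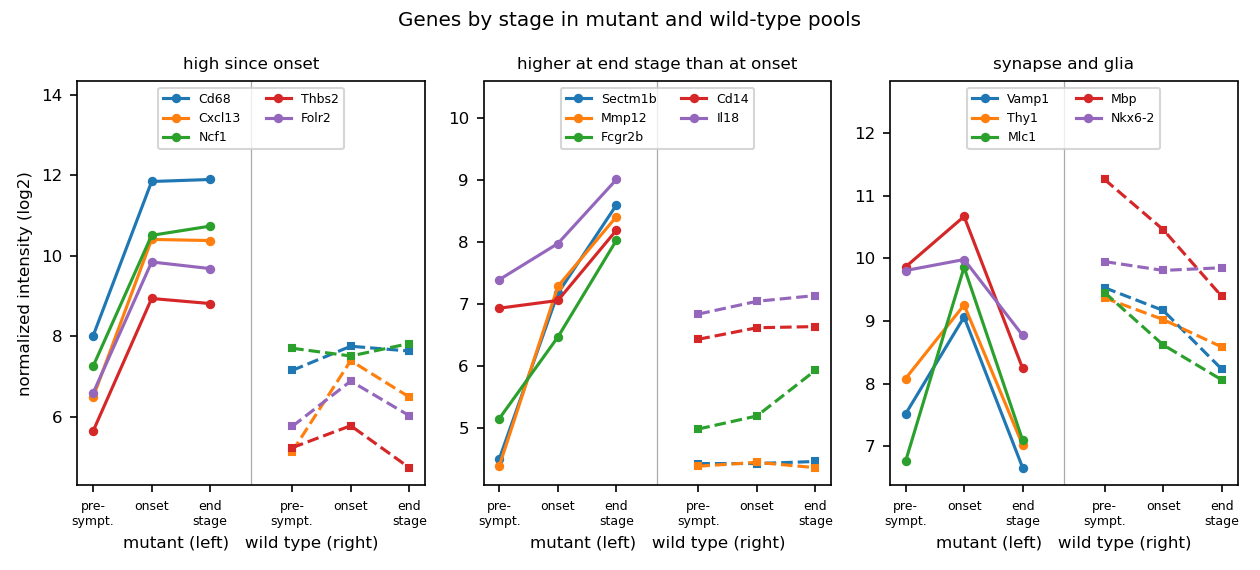
Each line is the log2 normalized intensity of 1 gene across the presymptomatic, onset and end-stage pools of the mutant (left, solid, circles) and the WT (right, dashed, squares), 1 array per point. Cd68 and its panel were level after onset, Sectm1b and its panel were higher at end stage than at onset, and the neuronal and glial genes of the right panel were lower.

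The 298 falls had a shared shape across the 6 arrays. Their median log2 level was 5.317, 7.325 and 5.731 in the presymptomatic, onset and end-stage mutant pools, against 7.291, 7.086 and 6.419 in the WT pools. The end-stage and onset values enter the choice of these genes, but the presymptomatic and WT values do not. The lowest of the 6 arrays was the presymptomatic mutant pool for 171 falls (57.4%, against 21.3% of all genes), and the end-stage mutant pool for 116. The WT step was below 0 for 264 falls (88.6%, against 47.2% of all genes). In 78 genes the WT step passed 2-fold in the same direction, which is 26.2% of the mutant falls and 54.9% of the WT falls. With genes that moved at least 1.5-fold in WT cord in the same direction left out, 149 falls remained, with median log2 levels of 5.776, 7.438 and 6.077 in the mutant pools and 7.289, 7.08 and 6.861 in the WT pools. The presymptomatic mutant array also detected the fewest probes of the 6, and the part of array quality or of pool composition in this shape was not tested. The 131 rises differed, since their median log2 level was 6.526, 6.046 and 7.236 in the mutant pools, against 6.407, 6.187 and 6.139 in the WT pools.

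Slc48a1, a heme transporter of endosomes and lysosomes, fell 13.2-fold, with log2 levels of 5.59, 9.55 and 5.83 in the presymptomatic, onset and end-stage mutant pools, against 9.64, 9.55 and 7.97 in the WT pools. Its log2 step of -3.72 was -2.55 with neqc and -3.11 with an offset of 50. Ppp2r5b, a regulatory subunit of protein phosphatase 2A, had log2 levels of 4.42, 8.73 and 5.22 in the presymptomatic, onset and end-stage mutant pools, against 9.17, 8.69 and 7.30 in the WT pools. Timp2, an inhibitor of matrix metalloproteinases, had log2 levels of 5.19, 9.45 and 6.22 in the presymptomatic, onset and end-stage mutant pools, against 9.45, 9.39 and 7.41 in the WT pools. In all 3 the onset mutant pool was within 0.1 of the onset WT pool, and the other mutant pools were far below it. Hcn2, a pacemaker channel of neurons, read 4.84, 8.22 and 5.16 (log2 level) from the presymptomatic to the end-stage mutant pool and 8.93, 8.21 and 7.03 across the WT pools. Brsk1, a kinase of axon specification, read 6.05, 8.57 and 5.53 (log2 level) from the presymptomatic to the end-stage mutant pool and 8.82, 8.42 and 6.91 across the WT pools. Akt1, a kinase of growth factor signalling, read 4.43, 8.62 and 5.79 (log2 level) from the presymptomatic to the end-stage mutant pool and 8.59, 8.03 and 6.91 across the WT pools. Each of these fell past 2-fold in WT cord as well, with log2 steps of -1.18, -1.51 and -1.13. Cap1, which binds actin monomers, had a mutant step of -2.87, Ly6h, a neuronal surface protein, one of -2.74, Opcml, an adhesion molecule of neurons, one of -2.64 and Gna12, a G protein alpha subunit, one of -2.49, with WT steps of -1.26, -1.03, -1.79 and -1.39 (log2). Mbd3, a subunit of the NuRD chromatin complex, was lowest in presymptomatic mutant cord, with log2 levels of 4.78, 9.60 and 7.09 in the presymptomatic, onset and end-stage mutant pools, against 7.86, 8.58 and 7.68 in the WT pools. Zfp36l2, which binds AU-rich mRNAs and speeds their decay, had log2 levels of 4.80, 7.94 and 5.45 in the presymptomatic, onset and end-stage mutant pools, against 6.55, 6.57 and 5.55 in the WT pools. Its onset mutant level stood above all other pools. Of the 15 largest falls, whose log2 steps ran from -3.72 to -2.43, 12 passed 2-fold in WT cord, 12 were lowest in presymptomatic mutant cord and 12 were still past 2-fold under neqc. Genes detected at mutant onset but not at end stage included Ddr1, a collagen receptor kinase, at least 10.3-fold lower, and Tspan7, a neuronal tetraspanin, at least 9.49-fold lower. Ddr1 was not detected in end-stage WT cord either, and Tspan7 had a WT step of -1.59. With neqc their log2 steps of -3.55 and -3.25 were -1.09 and -1.01.

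**Figure D3:**
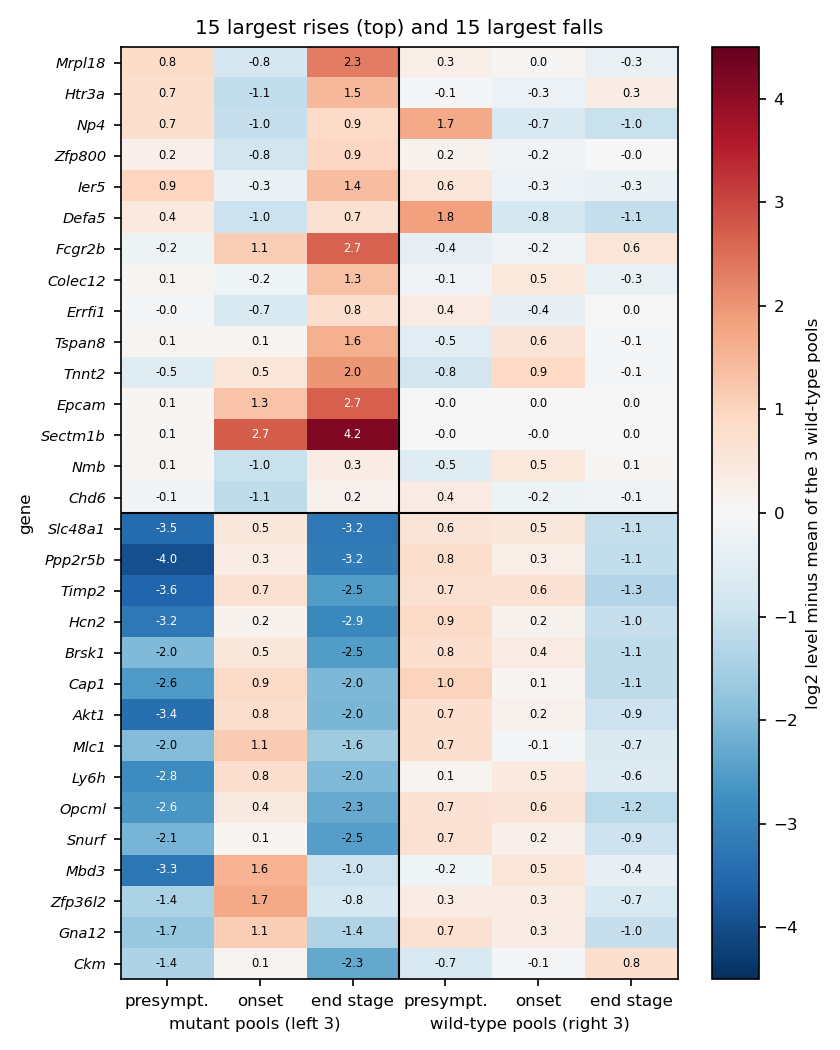
Rows are the 15 largest rises (top) and the 15 largest falls (bottom) among genes detected on both mutant arrays, columns are the 3 mutant pools (left) and the 3 WT pools (right) by stage, and colour and number give the log2 level minus the mean of the WT pools. Most falls were low in presymptomatic and end-stage mutant cord and near the WT mean at onset, while Ckm, at the bottom, was highest in end-stage WT cord.

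Promoter sequence was available from RefSeq (GRCr8) for 6726 of the 8100 genes (83%), for 105 of the 131 rises and for 239 of the 298 falls. Over the 250 bases before the annotated start, the median GC content was 58% in the rises, 62.4% in the falls and 59.6% in all genes, and the median number of CG pairs was 11, 17 and 16. The motif TGANTCA, the AP-1 consensus with any middle base, which reads the same on both strands, was found in 9.52% of the promoters of rises, 5.02% of those of falls and 4.71% of all. A match is a description of these letters and shows no binding. To show the spread of CG content, the stretches of a pair of the largest falls and of 2 immune genes that rose are given 5′ to 3′, with each CG in capitals. They lie at chr1:212964663-212964912 (minus strand) with 8 CG pairs, chr10:104089215-104089464 (minus strand) with 27, chr10:106832105-106832354 (minus strand) with 2 and chr8:12866402-12866651 (plus strand) with 4, and the last holds TGAGTCA from base 87 before the start.
Ppp2r5b: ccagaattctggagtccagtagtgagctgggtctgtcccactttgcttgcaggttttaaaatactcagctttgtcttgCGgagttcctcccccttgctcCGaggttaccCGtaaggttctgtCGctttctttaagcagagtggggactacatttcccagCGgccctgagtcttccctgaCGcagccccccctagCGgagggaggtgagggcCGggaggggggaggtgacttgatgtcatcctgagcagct
Timp2: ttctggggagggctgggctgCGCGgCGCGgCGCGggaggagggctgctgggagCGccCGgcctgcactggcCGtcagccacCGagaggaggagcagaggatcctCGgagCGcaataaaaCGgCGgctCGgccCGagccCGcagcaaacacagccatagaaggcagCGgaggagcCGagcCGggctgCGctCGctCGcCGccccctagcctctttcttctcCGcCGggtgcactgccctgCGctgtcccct
Sectm1b: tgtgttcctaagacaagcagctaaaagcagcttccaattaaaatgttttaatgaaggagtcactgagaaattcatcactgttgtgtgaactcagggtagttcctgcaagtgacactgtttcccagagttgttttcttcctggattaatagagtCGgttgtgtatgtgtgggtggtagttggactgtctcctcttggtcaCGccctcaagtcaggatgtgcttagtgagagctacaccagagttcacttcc
Mmp12: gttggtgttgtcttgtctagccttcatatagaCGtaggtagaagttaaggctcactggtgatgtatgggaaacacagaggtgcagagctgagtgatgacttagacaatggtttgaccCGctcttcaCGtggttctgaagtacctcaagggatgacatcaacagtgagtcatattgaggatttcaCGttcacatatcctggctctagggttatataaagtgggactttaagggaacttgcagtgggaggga

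Neuronal and synaptic genes were lower at end stage in 31 of 38 measured members, against 45.6% of all genes. Of the 38 members 8 fell, against 3.68% of all genes. The median log2 step was -0.38 in mutant cord and 0.04 in WT cord. Vamp1, the vesicle SNARE of motor nerve endings, had log2 levels of 7.51, 9.06 and 6.66 in the presymptomatic, onset and end-stage mutant pools, against 9.53, 9.17 and 8.23 in the WT pools. Thy1, a surface glycoprotein of neurons, had log2 levels of 8.08, 9.26 and 7.02 in the presymptomatic, onset and end-stage mutant pools, against 9.37, 9.02 and 8.59 in the WT pools. For both, the end-stage mutant pool was the lowest of the 6. Cplx1, a complexin that clamps vesicle fusion, fell by 2.38 on the log2 scale, with 5.47, 7.24 and 4.86 (log2 level) from the presymptomatic to the end-stage mutant pool and 8.12, 7.09 and 6.13 across the WT pools. Map2, a microtubule protein of dendrites, read 8.32, 8.65 and 7.19 (log2 level) from the presymptomatic to the end-stage mutant pool and 8.40, 8.81 and 8.41 across the WT pools. Its WT pools spanned 0.41 log2 units, and the end-stage mutant pool lay more than 1 unit below all of them. Rab3a, a GTPase of synaptic vesicles, and Nsf, the SNARE-recycling ATPase, had log2 steps of -1.31 and -1.23, against WT steps of -0.33 and -0.68. Map1b, a microtubule protein of growing axons, had 2 kept probes with mutant steps of -1.55 and -2.51.

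Inhibitory neuron genes fell in 3 of 15 measured members, against 3.68% of all genes. The list's median step of -0.20 turned positive under the shift by the 75th percentile. Slc32a1, the vesicular transporter of GABA and glycine, had log2 levels of 6.25, 8.83 and 7.56 in the presymptomatic, onset and end-stage mutant pools, against 9.50, 9.14 and 8.93 in the WT pools. Gad2, a GABA-synthesizing enzyme, had a log2 step of -1.29, against -0.84 in WT cord. Calb2, the calcium buffer calretinin, had log2 levels of 8.30, 8.41 and 7.15 in the presymptomatic, onset and end-stage mutant pools, against 8.89, 8.35 and 8.84 in the WT pools. It was lower at end stage only in the mutant, since the WT step was 0.49. Motor neuron genes were mixed, with 15 of 21 measured members above 0, 1 rise and 1 fall. Over all genes these shares were 54.2%, 1.62% and 3.68%. The fall was that of Nefh, the heavy neurofilament chain of large axons, with log2 levels of 6.995, 9.17 and 7.57 in the presymptomatic, onset and end-stage mutant pools, against 10.54, 9.49 and 9.55 in the WT pools. The rise was that of Aldh1a2, a retinoic acid-synthesizing enzyme that is also expressed in meninges, with log2 levels of 7.54, 8.11 and 9.18 in the presymptomatic, onset and end-stage mutant pools, against 7.30, 7.78 and 7.31 in the WT pools. Against 3.68% of all genes, 7 of 38 axonal transport and cytoskeleton genes fell, and none rose. They included Kif5a, a motor of axonal transport, with log2 levels of 7.54, 7.22 and 5.99 in the presymptomatic, onset and end-stage mutant pools, against 7.67, 7.82 and 7.50 in the WT pools. Hcn2 and Scn1a, a neuronal sodium channel with a log2 step of -1.07, were the only falls among 32 voltage-gated and potassium channel genes.

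Myelin genes had a step below 0 in 24 of 29 measured members and 5 fell, against 45.6% and 3.68% of all genes. Their median log2 step was -0.36 (-0.378 to -0.101 over the alternative settings) against 0.03 in WT cord. Mbp, the myelin basic protein, had log2 levels of 9.86, 10.67 and 8.24 in the presymptomatic, onset and end-stage mutant pools, against 11.26, 10.46 and 9.39 in the WT pools. The WT pools declined by stage too, and the WT step of -1.07 also passed 2-fold. Cldn11, a tight junction protein of myelin, had a step of -1.56, and Opalin, an oligodendrocyte membrane protein, one of -1.09, against WT steps of -0.48 and -1.02 (log2). Nkx6-2, a transcription factor of maturing oligodendrocytes, had log2 levels of 9.81, 9.98 and 8.77 in the presymptomatic, onset and end-stage mutant pools, against 9.95, 9.81 and 9.85 in the WT pools. Qdpr, the dihydropteridine reductase abundant in oligodendrocytes, had log2 levels of 9.38, 11.35 and 10.12 in the presymptomatic, onset and end-stage mutant pools, against 11.44, 11.37 and 11.33 in the WT pools. In both genes the WT pools were flat, with ranges of 0.14 and 0.10. Neu4, a sialidase of the oligodendrocyte lineage, was detected in every pool except end-stage mutant cord, at least 2.13-fold below onset. Its log2 step of -1.09 was -0.12 with neqc and -0.59 with an offset of 50. Oligodendrocyte precursor genes had a step below 0 in 10 of 12 members.

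Astrocyte genes were lower at end stage in 16 of 18 measured members and 3 fell, against 45.6% and 3.68% of all genes. Their median log2 step was -0.35 (-0.406 to -0.181 over the alternative settings) against 0.10 in WT cord. Mlc1, a membrane protein of astrocyte endfeet, had log2 levels of 6.76, 9.86 and 7.10 in the presymptomatic, onset and end-stage mutant pools, against 9.46, 8.62 and 8.06 in the WT pools. Aqp4, the endfoot water channel, had log2 levels of 6.14, 7.30 and 5.11 in the presymptomatic, onset and end-stage mutant pools, against 7.03, 6.45 and 5.67 in the WT pools. Fgfr3, a growth factor receptor of astrocytes, read 5.67, 7.64 and 6.26 (log2 level) from the presymptomatic to the end-stage mutant pool and 7.88, 8.08 and 7.45 across the WT pools. All 3 had WT steps below 0, from -0.78 to -0.56. The reactive astrocyte list ran the other way, with 22 of 28 steps above 0, against 54.2% of all genes. Its median was 0.31 (0.237 to 0.554 over the alternative settings). Against 1.62% of all genes, 2 members rose. These were Cd14 and Stat3, the transcription factor of interleukin 6 signalling, with log2 levels of 6.60, 7.99 and 9.04 in the presymptomatic, onset and end-stage mutant pools, against 7.55, 7.22 and 8.12 in the WT pools. The WT step of Stat3 was 0.90, close to the mutant step of 1.04.

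Some falls occurred where the WT pools differed little. Pkm, the pyruvate kinase of glycolysis, fell 3.6-fold, with log2 levels of 6.68, 9.52 and 7.68 in the presymptomatic, onset and end-stage mutant pools, against 9.61, 9.67 and 9.53 in the WT pools. Keap1, the inhibitor of the antioxidant factor Nrf2, read 6.87, 8.90 and 7.69 (log2 level) from the presymptomatic to the end-stage mutant pool and 8.77, 8.78 and 8.46 across the WT pools. Mgst3, a microsomal glutathione transferase, had log2 levels of 9.89, 10.08 and 9.07 in the presymptomatic, onset and end-stage mutant pools, against 10.37, 10.46 and 10.43 in the WT pools. Map1a, a microtubule protein of mature neurons, read 6.77, 8.34 and 7.15 (log2 level) from the presymptomatic to the end-stage mutant pool and 8.03, 8.13 and 7.95 across the WT pools. The WT pools of these 4 genes spanned 0.15, 0.32, 0.09 and 0.18 log2 units. These genes were named for their list or size of step and were grouped after their WT values were seen. In Pkm, Keap1 and Map1a the presymptomatic mutant pool was again below the end-stage one. Nnat, neuronatin, had log2 levels of 8.73, 8.73 and 7.31 in the presymptomatic, onset and end-stage mutant pools, against 8.74, 8.77 and 8.43 in the WT pools. Its dimmer probe gave a mutant step of -2.76 and a WT step of -1.78.

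Most metabolic and protein-handling lists had medians near that of all genes. Over all genes, 45.6% had a step below 0, 1.62% rose and 3.68% fell. Glycolysis genes had a step below 0 in 16 of 22 members with Pkm as the only fall, and their median of -0.18 turned positive under the shift by the 75th percentile. Respiratory chain genes had a median log2 step of -0.06 that turned positive under the same shift, with Cox7a2l, an assembly factor of respiratory supercomplexes, the only fall of 56, at -1.02. Cytosolic ribosome genes had a median of 0.01 over 57 members, and Rps2, a small-subunit protein, was the only fall, with log2 levels of 5.18, 10.19 and 8.79 in the presymptomatic, onset and end-stage mutant pools, against 9.07, 9.44 and 8.80 in the WT pools. Its presymptomatic mutant level was the lowest by more than 3 units. Cholesterol synthesis genes had a step below 0 in 16 of 20 members, none past 2-fold, with a median of -0.30 (-0.396 to -0.15 over the alternative settings) against -0.10 in WT cord. Insig1, the sterol-sensing retention protein, had the largest of them at -0.94, against -0.48 in WT cord. Apoc1, an apolipoprotein of lipid-laden macrophages, rose, with log2 levels of 7.66, 9.30 and 10.39 in the presymptomatic, onset and end-stage mutant pools, against 7.38, 6.87 and 7.66 in the WT pools, and was the only one of 23 lipid efflux and storage genes to do so. Of 48 lysosome and autophagy genes none passed 2-fold. Canx, the chaperone calnexin, fell by 1.76 and Psma1, a proteasome core subunit, rose by 1.04 (log2 steps), each the only one of its list, and the WT step of Canx was -1.30.

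Immediate-early and stress genes were higher at end stage in 27 of 31 measured members, with a median log2 step of 0.36 against -0.11 in WT cord. Over all genes, 54.2% had a mutant step above 0, 1.62% rose and 3.68% fell. On the brightest probe of each gene 3 members passed 2-fold upward, Dusp1, Ccn1 and Ier5, and 1 fell, Zfp36l2, with a log2 step of -2.50. Dusp1, a phosphatase that switches off MAP kinases, had log2 levels of 9.82, 9.80 and 10.89 in the presymptomatic, onset and end-stage mutant pools, against 10.37, 9.69 and 9.97 in the WT pools. Ccn1, a matricellular immediate-early protein, had log2 levels of 7.59, 6.60 and 7.82 in the presymptomatic, onset and end-stage mutant pools, against 6.99, 6.51 and 6.62 in the WT pools. In both, the end-stage mutant pool was the highest of the 6. Ier5, an immediate-early regulator of the heat shock response, had a log2 step of 1.70 on its brighter probe, but its dimmer probe gave -1.58, so no direction is given for it. Cell cycle genes had a step above 0 in 27 of 33 members and 2 rose. Aurkb, a kinase of mitosis, had log2 levels of 5.12, 5.82 and 6.91 in the presymptomatic, onset and end-stage mutant pools, against 5.69, 5.07 and 5.20 in the WT pools. Bub1, a kinase of the spindle checkpoint, was not detected at mutant onset and was at least 2.41-fold higher at end stage. Its log2 step of 1.56 was 0.19 with neqc and 0.81 with an offset of 50. Bub1 was kept through detection at end stage alone, which favours a rise. Apoptosis and p53 genes had 29 of 37 steps above 0 and none past 2-fold. Extracellular matrix genes had 31 of 45 above 0, with Mmp12 and Adamts1 the 2 rises and Timp2 and Timp3 the 2 falls, and a median of 0.21 (0.193 to 0.448 over the alternative settings) against -0.45 in WT cord.

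**Figure D4:**
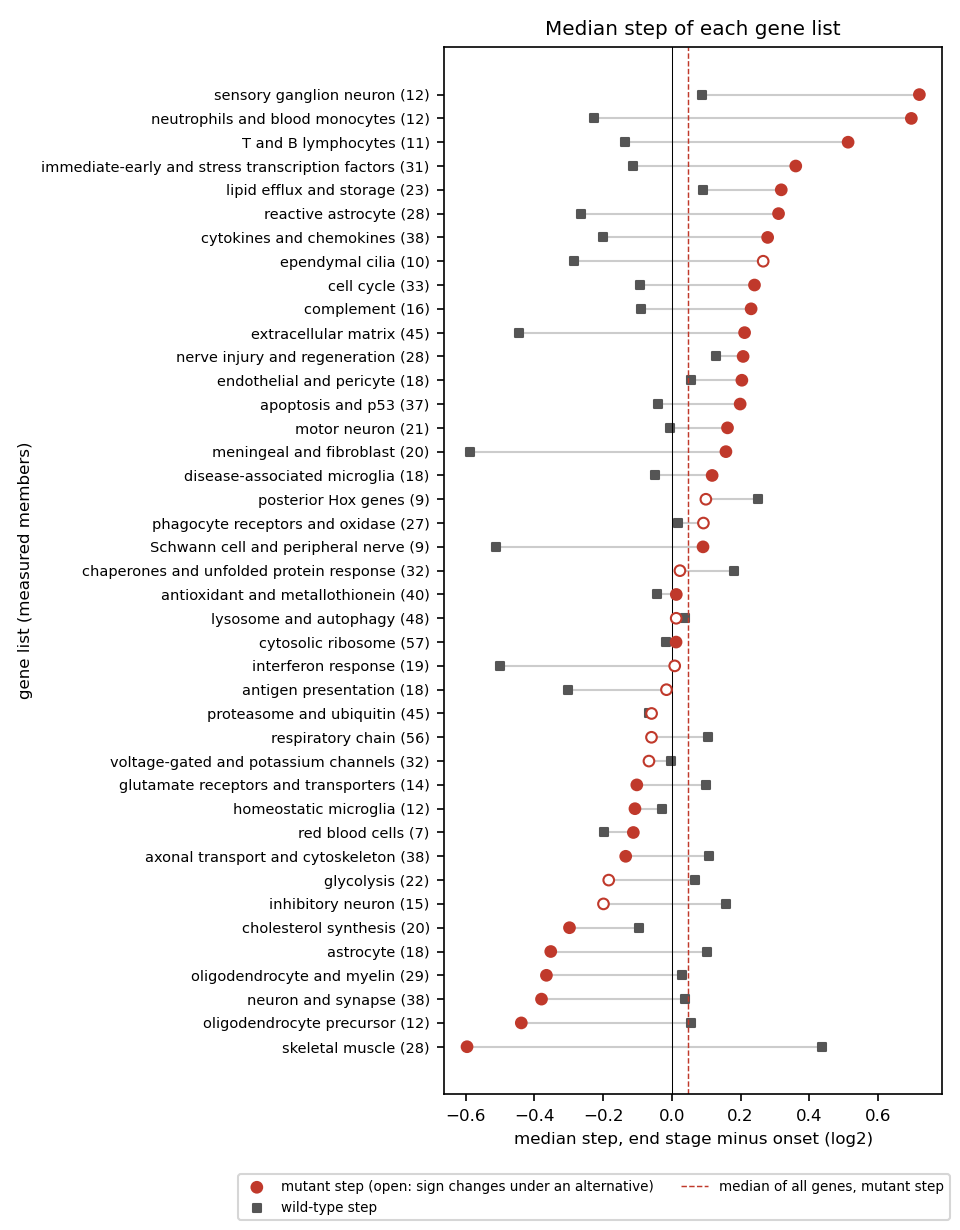
Each row is 1 of 41 gene lists with its number of measured members, the red circle is the median log2 step in mutant cord, the grey square the median step in WT cord, and the dashed line the median of all genes in mutant cord (0.0475). Open circles mark the 12 lists whose mutant median changed sign under at least 1 alternative processing. The neuron and synapse, myelin and astrocyte lists lie to the left, with skeletal muscle furthest left (-0.60). The immediate-early, lymphocyte, neutrophil and reactive astrocyte lists lie to the right, with sensory ganglion neuron furthest right (0.72). The motor neuron list also lies to the right (0.16).

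Genes of sensory ganglia, skeletal muscle and blood cells differed between the pools. Scn10a, the sodium channel of pain-sensing neurons, was not detected at mutant onset and was at least 16.3-fold higher at end stage, with log2 levels of 5.89, 4.59 and 8.73 in the presymptomatic, onset and end-stage mutant pools, against 4.99, 6.94 and 5.04 in the WT pools. Its log2 step of 4.14 was 1.75 with neqc and 2.98 with an offset of 50. Among WT pools it was highest at onset, so its step there was -1.90. Scn11a, a related channel, was at least 4.91-fold higher at end stage, with log2 levels of 4.47, 4.43 and 7.01 in the presymptomatic, onset and end-stage mutant pools, against 4.51, 5.46 and 4.52 in the WT pools, and in WT cord it was detected at onset only. Its log2 step of 2.58 was 0.46 with neqc and 1.55 with an offset of 50. Trpv1, the capsaicin receptor, had a log2 step of 1.31, and Htr3a, a serotonin-gated channel subunit of sensory neurons and interneurons, had log2 levels of 7.72, 5.88 and 8.46 in the presymptomatic, onset and end-stage mutant pools, against 6.93, 6.75 and 7.34 in the WT pools. Acp3, an acid phosphatase of pain-sensing neurons, was detected in end-stage mutant cord alone, at least 2.65-fold above onset. Its log2 step of 1.41 was 0.18 with neqc and 0.78 with an offset of 50. Of 12 sensory ganglion genes measured, 3 rose and Nefh fell, against 1.62% and 3.68% of all genes. Scn10a and Scn11a, both among the rises, were kept through detection at end stage alone, which favours a rise. The list's summed intensity was 6725, 3404 and 5209 in the presymptomatic, onset and end-stage mutant pools and 6689, 5425 and 6997 in the WT pools, and 3 of its 15 genes on the array were not detected in mutant cord at either stage. The part of ganglion or root tissue in these values was not tested.

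Skeletal muscle genes fell in 9 of 28 measured members, against 3.68% of all genes. Their median log2 step was -0.60 (-0.865 to -0.153 over the alternative settings), against 0.44 in WT cord. Ckm, the muscle creatine kinase, had log2 levels of 8.45, 9.98 and 7.55 in the presymptomatic, onset and end-stage mutant pools, against 9.16, 9.76 and 10.62 in the WT pools. Actn3, an actinin of fast fibres, had log2 levels of 7.24, 8.11 and 5.72 in the presymptomatic, onset and end-stage mutant pools, against 7.56, 8.27 and 9.09 in the WT pools. Myl11, a myosin light chain of fast fibres, read 8.02, 9.30 and 6.93 (log2 level) from the presymptomatic to the end-stage mutant pool and 7.89, 8.62 and 9.31 across the WT pools. In all 3, end-stage WT cord was the highest of the 6 pools and end-stage mutant cord the lowest. The list's summed intensity was 6327, 9063 and 4273 in the presymptomatic, onset and end-stage mutant pools and 6670, 9031 and 12220 in the WT pools, largest in end-stage WT cord, and 4 of its 32 genes on the array were not detected in mutant cord at either stage. Tnnt2, the cardiac troponin T, rose in mutant cord, with log2 levels of 5.93, 7.005 and 8.46 in the presymptomatic, onset and end-stage mutant pools, against 5.65, 7.38 and 6.37 in the WT pools. The part of adhering muscle in these values was not tested. Leaving out the listed muscle, sensory ganglion, red blood cell and neutrophil genes gave 124 rises and 288 falls, against 131 and 298. Only the few listed genes are removed by this, so the counts cannot show how much such tissue adds to other genes.

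Neutrophil genes rose in 4 of 12 measured members, against 1.62% of all genes. Of the list's 20 genes on the array, 8 were not detected in mutant cord at either stage. The median log2 step of the list was 0.697, but 0.0974 with neqc and 0.0915 without the detection filter. S100a8, a subunit of calprotectin, had log2 levels of 9.15, 8.29 and 9.45 in the presymptomatic, onset and end-stage mutant pools, against 10.17, 8.12 and 7.93 in the WT pools. Defa5, a defensin, had log2 levels of 8.64, 7.22 and 8.87 in the presymptomatic, onset and end-stage mutant pools, against 10.03, 7.42 and 7.14 in the WT pools. Np4, a further neutrophil defensin, read 7.70, 5.93 and 7.85 (log2 level) from the presymptomatic to the end-stage mutant pool and 8.67, 6.27 and 5.97 across the WT pools. For all 3 the presymptomatic WT pool was the highest of the 6, and the mutant steps of 1.17, 1.64 and 1.91 were smaller than the WT ranges of 2.25, 2.89 and 2.71. Mpo, the neutrophil peroxidase, was not detected at mutant onset and was at least 2.22-fold higher at end stage. Its log2 step of 1.29 was 0.15 with neqc and 0.67 with an offset of 50. Mpo was kept through detection at end stage alone, which favours a rise. The list's summed intensity was 1794, 2392 and 3138 in the presymptomatic, onset and end-stage mutant pools and 3548, 1386 and 991.8 in the WT pools. Of 7 measured red blood cell genes none passed 2-fold, and Hba-a1, an alpha globin, had log2 steps of -0.35 in mutant cord and -0.14 in WT cord. The part of blood in the neutrophil values was not tested.

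**Figure D5:**
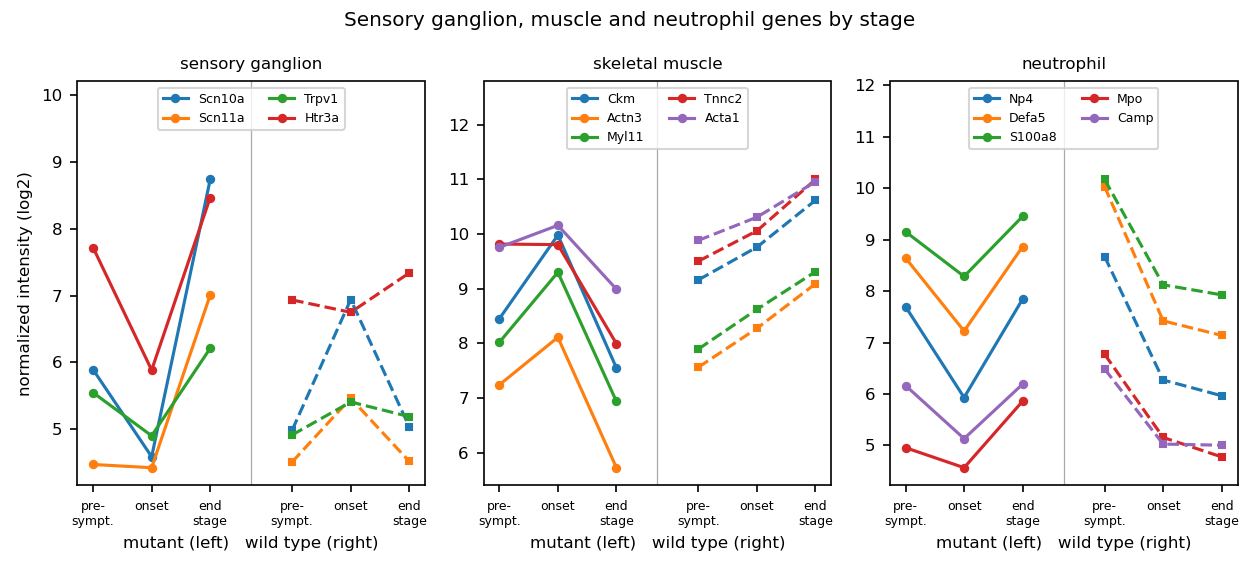
Each line is the log2 normalized intensity of 1 gene in the presymptomatic, onset and end-stage pools of the mutant (left, solid, circles) and the WT (right, dashed, squares), 1 array per point. The sensory ganglion genes shown, named for the size of their steps, were highest in end-stage mutant cord. The summed intensity of the sensory ganglion list was not, at 5209 there against 6997 in end-stage WT cord. The muscle genes shown were lowest in end-stage mutant cord and highest in end-stage WT cord. The neutrophil genes shown were highest in presymptomatic WT cord.

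Set against the WT step, the largest net gains after Scn10a were those of Scn11a, Mrpl18 and Ppp1r1c, followed by Prg4, the joint lubricant proteoglycan also found in fibroblasts, with log2 levels of 5.43, 6.47 and 7.48 in the presymptomatic, onset and end-stage mutant pools, against 6.32, 6.77 and 5.22 in the WT pools. The largest net losses were the muscle genes Ckm, Actn3, Myl11, Tnni2 and Tnnc2. A single test used the spread of the 3 WT pools, treated as 1 group, as the error of the mutant step. In it, limma called 0 of 11493 probes (0%) after Benjamini-Hochberg adjustment at 0.05, the smallest adjusted p was 0.467, and 1189 probes had an unadjusted p below 0.05. With 2 residual degrees of freedom, and WT pools that also differ in stage, this limma test had little precision, and no gene above is called by it.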

How the data were processed

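RNA pooled from 5 rats per genotype and stage was hybridised to 6 Illumina BeadChip arrays. Per the file headers, the authors deposited probe intensity and the p-value of its detection, from BeadStudio 3.2.6 (version per the submitters' processing notes), as a non-normalized table, and a table of normalized intensity. How that table was normalized is not stated in the labels or headers. Deposited IDs were sorted as text and matched to gene symbols of the platform table (13192 of 22226 probes with 1 symbol, 9034 with none, 0 with several). Intensities were background-corrected by normexp in limma 3.58.1 (R 4.3.3), with noise regressed from detection p-values between 0.05 and 0.95, since neqc inferred a noise SD of 91.8 to 159 against 6.52 to 8.46 here. An offset of 16 was added, arrays were quantile-normalized and log2 taken. A gene is its brightest kept probe. For a gene not detected on 1 mutant array, "at least" folds set its level there at the array's lowest detected signal or at its own, whichever was higher, so that the fold equals the measured one where its own was higher. The limma test used all 6 arrays. It was also run on simulated data in which every pool varied as the WT pools do, so that run cannot show whether the mutant pools do. Named genes are the 15 largest rises and falls, the 5 largest bounds each way, list members past 2-fold (at most 8) or else the 2 largest steps, the 5 largest net steps each way, the 10 largest onset excesses, and Sod1. Members, lists and rules were chosen with earlier results of these data known. Of 1443 listed symbols, 1102 were on the array and 950 measured. The number of arrays limits precision.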

Additional observations from a re-analysis of the deposited data

Results flagged for a closer look

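Prg4, Scn10a and Tnnt2 drew attention because each moved past 2-fold in opposite directions in the 2 genotypes. The net step, the mutant step minus the WT step, was 2.56 for Prg4, from log2 steps of 1.01 in mutant cord and -1.54 in WT cord. It was 6.05 for Scn10a, from 4.14 in mutant cord and -1.90 in WT cord, and 2.47 for Tnnt2, from 1.46 and -1.01. The skeletal muscle list had a median net step of -1.04, since its median was -0.60 in mutant cord and 0.44 in WT cord. With 1 pool per genotype and stage, none of these differences was tested. Among the 3332 detected probes that carry no gene name, which no comparison above uses, 62 rose past 2-fold and 154 fell past it at end stage in mutant cord (1.86% and 4.62%), against 10 and 62 in WT cord, and their largest log2 steps were 2.45 and -3.85.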

How the results depend on the processing

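The counts of genes past 2-fold depended most on the background correction, the offset and the normalization between arrays. In mutant cord, 131 rose and 298 fell. With neqc these were 38 and 93, with an offset of 50 in place of 16 they were 33 and 147, without normalization between arrays they were 36 and 628, and in the authors' normalized values 292 rose. A threshold of 1.5-fold gave 840 rises and 833 falls, and 149 falls were left without genes that moved at least 1.5-fold the same way in WT cord. In WT cord, 19 rose and 142 fell. With neqc these were 4 and 43, with an offset of 50 they were 4 and 57, without normalization between arrays they were 5 and 281, without background correction 29 rose, and at 1.5-fold 395 rose and 581 fell. For the net step, 289 were higher and 214 lower. With neqc these were 116 and 75, with an offset of 50 they were 123 and 82, at 1.5-fold they were 1098 and 947, and in the authors' values 443 were higher. The larger offset compresses low values by construction, and the other causes were not tested. The median step of all genes was 0.0475, against 0.123 after the shift by the 75th percentile and -0.102 without normalization between arrays. The remaining alternatives (detection on both mutant arrays, no detection filter, the median over probes, the shift by the 75th percentile, and the 4 onset and end-stage arrays normalized without the presymptomatic ones) kept each count within 1.5 times, as did leaving out muscle, sensory ganglion and blood cell genes, which was run for the mutant counts only (124 and 288). Of the 102 named genes past 2-fold, none changed sign in any setting, and 52 were past 2-fold with neqc, 70 with an offset of 50, 85 without normalization between arrays, 88 in the authors' values and 90 after the 75th-percentile shift. Of the 41 lists, 12 had a median that changed sign in at least 1 setting. With the IDs as deposited the list medians ran from -0.413 to 0.446. The limma test called 0 probes in every setting, with 0 to 0 when each WT pool was left out in turn, the smallest adjusted p between 0.087 and 0.614, and 839 to 1988 probes at an unadjusted p below 0.05. Settings that use 4 arrays, or that leave out genes, were added after the data were seen. No paired analysis was possible because each genotype and stage has 1 pool and the labels give no replicate numbers. Probes near background limit the low genes, as 91 of the 429 steps past 2-fold involve a gene detected on only 1 of the mutant arrays.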

Other observations

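Cell types at the edge of the cord gave values not described above. Of all genes, 54.2% had a mutant step above 0, and 1.62% rose and 3.68% fell in mutant cord. Meningeal and fibroblast genes had 13 of 20 steps above 0 and a median log2 step of 0.16 in mutant cord and -0.59 in WT cord, with Aldh1a2 as the only rise and Nnat as the only fall. Schwann cell and peripheral nerve genes had 6 of 9 steps above 0 and a median log2 step of 0.09 in mutant cord and -0.51 in WT cord. Gldn, gliomedin of the Schwann cell node, had log2 levels of 8.55, 9.13 and 8.57 in the presymptomatic, onset and end-stage mutant pools, against 8.71, 9.40 and 7.999 in the WT pools, so it fell at end stage in WT cord but not past 2-fold in the mutant. Ependymal cilia genes had 9 of 10 steps above 0 and a median log2 step of 0.27 in mutant cord and -0.28 in WT cord, and the mutant median turned negative without normalization between arrays. Endothelial and pericyte genes had 13 of 18 steps above 0 and a median log2 step of 0.20 in mutant cord and 0.06 in WT cord. Mcam and Tek, both vessel genes, were detected at mutant onset and not at end stage, and in WT cord likewise at onset and not at end stage.

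Among all genes, the share with a mutant step above 0 was 54.2%, and 1.62% rose and 3.68% fell. Nerve injury and regeneration genes had 19 of 28 steps above 0 and a median log2 step of 0.21 in mutant cord and 0.13 in WT cord, with none past 2-fold in the mutant. Ankrd1, a stretch-induced ankyrin protein, came nearest, with log2 levels of 4.89, 5.08 and 6.07 in the mutant pools by stage and 4.87, 4.66 and 5.03 in the WT pools. Glutamate receptor and transporter genes had 3 of 14 steps above 0 and a median log2 step of -0.10 in mutant cord and 0.10 in WT cord. Grm5, a metabotropic glutamate receptor, was detected at mutant onset and not at end stage, at least 1.94-fold lower. Its log2 step of -1.20 was -0.13 with neqc and -0.60 with an offset of 50. Antioxidant and metallothionein genes had 20 of 40 steps above 0 and a median log2 step of 0.01 in mutant cord and -0.04 in WT cord, with Keap1 and Mgst3 as the 2 falls. Cd163, the hemoglobin scavenger receptor of perivascular macrophages, was not detected at mutant onset and was at least 1.96-fold higher at end stage, against a WT step of 0.74. Its log2 step of 1.03 was 0.11 with neqc and 0.53 with an offset of 50. Fkbp2, a prolyl isomerase of the endoplasmic reticulum named here after its values were seen, was the gene that rose in both genotypes, with log2 steps of 1.19 in mutant cord and 1.10 in WT cord.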
